A study of Homo sapiens with 61 samples.

Results

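Cadherins are calcium-dependent adhesion proteins that join neighbouring cells and help axons and dendrites choose their partners. The gene set described here holds the classical cadherins, the non-clustered protocadherins, the CELSR, FAT and DCHS giant cadherins, the calsyntenins and the catenins that tie cadherins to the cytoskeleton. Members were all protein-coding genes whose symbols match these families by a fixed name pattern, 53 of 58440 gene identifiers in the files. An expression filter kept 45 of them for testing in experiment 1 and 50 in experiment 2. CDH5, CDH16 and CDH17, which are known from blood vessels, kidney and the liver and gut, passed in neither experiment. CDH1, CDH15, CDH19, CDH26 and PCDH20 passed in experiment 2 only.

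The cells were neurons made from WTC11, a human induced pluripotent stem cell line, by expression of the transcription factor NGN2. Experiment 1 used WTC11 neurons that were wild type (WT), DLK KO, LZK KO or DLK LZK double KO (below, double KO), where DLK (gene MAP3K12) and LZK (gene MAP3K13) are axonal stress kinases upstream of the JNK pathway, and all 4 lines carried a doxycycline-driven NGN2 cassette. Experiment 2 used WTC11 neurons with CRISPRi machinery, which represses a gene at its promoter, transduced with lentivirus for ATF2 gRNA, JUN gRNA or a scrambled Control gRNA. ATF2 and JUN are transcription factors that JNK phosphorylates. On day 14 each line received DMSO vehicle ("untreated") or 5 nM vincristine, a microtubule-disrupting chemotherapy drug, for 16 hours. Each group of experiment 1 held 4 libraries, and each group of experiment 2 held 5, except 4 for ATF2 gRNA with vincristine. The labels do not say how many clones stand for each knockout line or whether libraries came from separate cultures, so p-values measure only the spread between these libraries.

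Library totals ran from 8.41M to 14.65M counts in experiment 1 and from 38.9M to 88.4M in experiment 2. Untreated MAP3K12 stood at 89.7 to 94.3 CPM (counts scaled to a common library size, with TMM factors) in WT, 23.7 to 29.7 in DLK KO and 17.5 to 21.8 in double KO. Untreated MAP3K13 stood at 96.8 to 102 CPM in WT, 30.1 to 34.2 in LZK KO and 26.7 to 31.0 in double KO. In untreated Control gRNA of experiment 2, MAP3K12 stood at 110.7 to 126 CPM and MAP3K13 at 24.3 to 27.3. ATF2 stayed under 1 CPM in every ATF2 gRNA library, against 111 to 158 in untreated Control gRNA, and JUN at 2.24 to 7.74 CPM in JUN gRNA, against 81.7 to 97.8. JUN was also low in ATF2 gRNA, at 17.1 to 23.9 CPM. In experiment 1, untreated JUN stood at 131 to 150.6 CPM in WT, 48.2 to 60.55 in DLK KO, 100.4 to 132.9 in LZK KO and 36.5 to 41.9 in double KO. Untreated ATF2 stood at 120.7 to 151.3 CPM in WT, 64.5 to 77.8 in DLK KO, 129.3 to 204 in LZK KO and 141.1 to 155.5 in double KO. The summed neuron markers (MAP2, RBFOX3, TUBB3, STMN2, DCX, SYT1, SNAP25, NEFM) stood at 8841 to 16050 CPM in every library. The 6 pluripotent cell markers (POU5F1, NANOG, LIN28A, L1TD1, DPPA4, TDGF1) summed to 2.00 to 62.6 CPM over all libraries of experiment 1 and 6.80 to 40.4 over those of experiment 2; among them NANOG stayed under 0.5 CPM and POU5F1 at or under 1.04 in every library. WT vincristine replicate 4 stood apart from its group, with JUN at 289 CPM and CLSTN1 at 220 CPM against 373 to 392.2 in the other 3 libraries. Without it 26 members were called with vincristine in WT, against 24 with it, and 21, 14 and 23 for the differences of DLK KO, LZK KO and double KO from WT, against 20, 15 and 18.

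In a classical cadherin, the outer domains bind a cadherin on the next cell, and the inner tail binds p120 or delta catenin and, through beta catenin, an alpha catenin that holds actin. Type I cadherins such as CDH2 hold cells together strongly, while the many type II cadherins are known for matching groups of neurons to each other. Delta protocadherins adhere weakly and help sort axons, FAT and DCHS proteins can bind each other across cells, CELSR proteins carry planar cell polarity and guide axon tracts, and calsyntenins link kinesin cargo and synapses.

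Levels between genes were compared as RPKM, which is CPM divided by exon length in kilobases. CDH2, the neural cadherin, led untreated WT at 74.1 ± 1.75 RPKM (SD, n = 4) and was followed by CLSTN1 at 63.9 ± 2.18, and the libraries of the pair did not overlap. In untreated Control gRNA the order of this pair was turned, with CLSTN1 at 78.0 ± 1.84 RPKM (n = 5) and CDH2 at 59.9 ± 2.43. CTNND2 (delta catenin of neurons) stood at 45.6 ± 2.38 RPKM in WT and 32.8 ± 0.832 in Control gRNA. CTNNA2, the alpha catenin of neurons, stood at 28.3 ± 1.52 and 25.1 ± 0.535 RPKM, and CLSTN3 at 27.0 ± 1.11 and 36.6 ± 1.44. PCDH10 stood at 33.5 ± 1.33 RPKM in WT, in the same range as PCDH11X at 32.3 ± 0.6003, and at 14.5 ± 0.887 in Control gRNA. CLSTN2 at 25.7 ± 0.934, CELSR2 at 24.4 ± 0.694 and CTNND1 (p120 catenin) at 22.6 ± 0.545 RPKM completed the leading members of Control gRNA; CLSTN2 and CTNNA2 overlapped there, as did CTNNA2 and CELSR2. PCDH11X shares most of its sequence with PCDH11Y, which was among the leading 8 in WT, and reads of the 2 cannot be told apart with certainty.

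**Figure D1:**
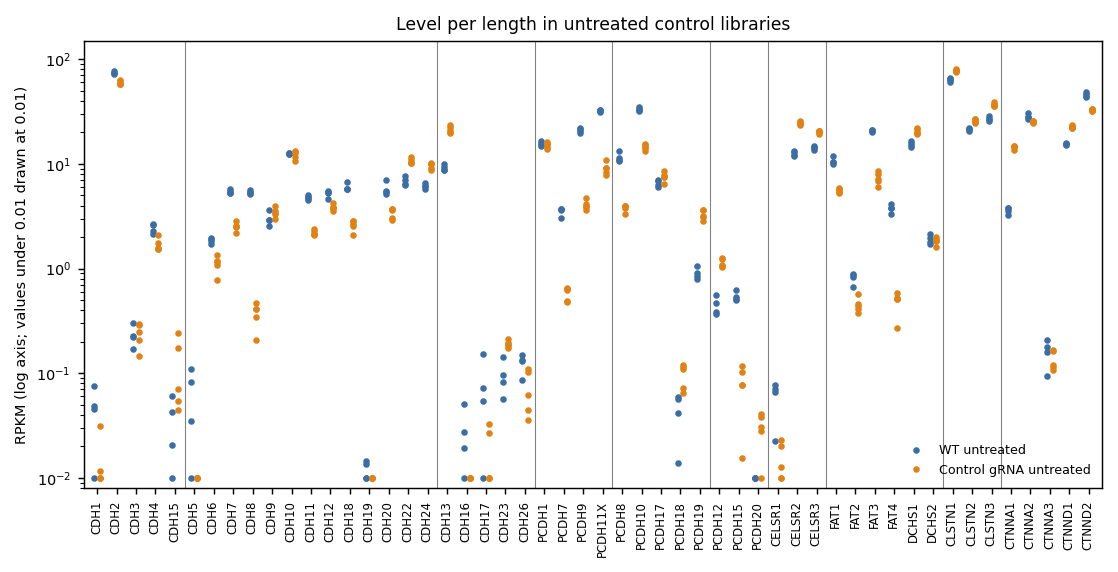
Level of each member in RPKM (log axis) in the 4 untreated WT libraries (blue) and the 5 untreated Control gRNA libraries (orange), with families separated by vertical lines; values under 0.01 are drawn at 0.01 and PCDH11Y is not drawn. In WT 19 members stood at or above 10 RPKM, 17 between 1 and 10 and 17 under 1, and in Control gRNA 17, 18 and 18.

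Most type II cadherins lay between these extremes. CDH20 stood at 5.78 ± 0.842 RPKM in untreated WT, and its libraries overlapped those of its neighbours in the order, CDH18 and CDH7. The gene lies on GRCh38 chromosome 18 from 61333582 to 61555773 on the plus strand (ENSG00000101542.9, GENCODE 29). Its sequence before the start is shown because CDH20 had the lowest log2 fold change among called members in Control gRNA. It is from RefSeq (GRCh38.p14, plus strand, chr18:61333180-61333429), and any AP-1 (TGANTCA) or CRE (TGACGTCA) letters, searched on both strands, would stand in capitals; it holds neither.
CDH20: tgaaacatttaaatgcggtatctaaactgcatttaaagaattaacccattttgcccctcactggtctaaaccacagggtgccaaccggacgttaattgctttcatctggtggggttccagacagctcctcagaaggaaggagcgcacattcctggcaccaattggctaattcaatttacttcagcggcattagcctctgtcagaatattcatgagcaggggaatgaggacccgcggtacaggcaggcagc

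AP-1 letters are known to be bound by JUN dimers and CRE letters by ATF2 and related factors. RefSeq promoter windows of 250 bases before and 50 after a start were found for 35 of the 53 members (60 windows). Members without a window were not searched. AP-1 letters stood in 6.67% of these windows, those of CDH2, CDH12, CDH18 and PCDH11X, and in 7.71% of all 35116 windows. CRE letters stood in 6.67% of member windows and in 1.85% of all windows. The 4 CRE sites are shown with their flanks and the CRE in capitals, since their genes are described below with vincristine; the plus strand is shown for CLSTN2 (chr3:139935122-139935149), CLSTN3 (chr12:7130354-7130381) and CTNNA1 (chr5:138875369-138875396), and the minus strand for FAT1 (chr4:186726735-186726762). The first base of the CRE lies 53 bases before the start for CLSTN2, 56 for FAT1, 7 for CLSTN3, where the site overlaps the start, and 21 for CTNNA1, at an internal start of that gene.
CLSTN2: cctccctccgTGACGTCAcgggccgtcc
FAT1: ggcggggcgcTGACGTCAcctcccctcc
CLSTN3: ccggctgtgcTGACGTCAtcctgcagta
CTNNA1: gtatataggcTGACGTCAccggatgacg
A match describes letters in a window and shows no binding.

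The first comparison asks how vincristine changed the cadherin family in WT and Control gRNA, where neither the kinases nor the factors were targeted. Of the type II cadherins 7 of 11 fell in WT and 8 of 12 in Control gRNA, of the delta-2 protocadherins 4 of 5 fell in each, and FAT2, DCHS2 and the alpha catenin CTNNA1 rose in both. The type II cadherin CDH6 rose in both. In WT, 24 of 45 members were called (11 higher, 13 lower; edgeR quasi-likelihood test, Benjamini-Hochberg adjusted p under 0.05 over all genes), beside 30.2% of all 18235 genes tested (15.7% higher, 14.5% lower). In Control gRNA, 32 of 50 were called (13 higher, 19 lower), beside 35.3% of all 20759 genes (17.1% higher, 18.1% lower). The median log2 fold change of the members was -0.09 in WT and -0.11 in Control gRNA, beside 0.00 and 0.03 for all genes. WT and Control gRNA belong to different experiments and share no library. 18 members were called in the same direction in both, which is 75.0% of those called in WT and 56.25% of those called in Control gRNA, and 0 in opposite directions. Over all genes these shares were 68.5% and 52.2%. In bulk RNA, fewer cells of a kind and less RNA per cell cannot be told apart.

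**Figure D2:**
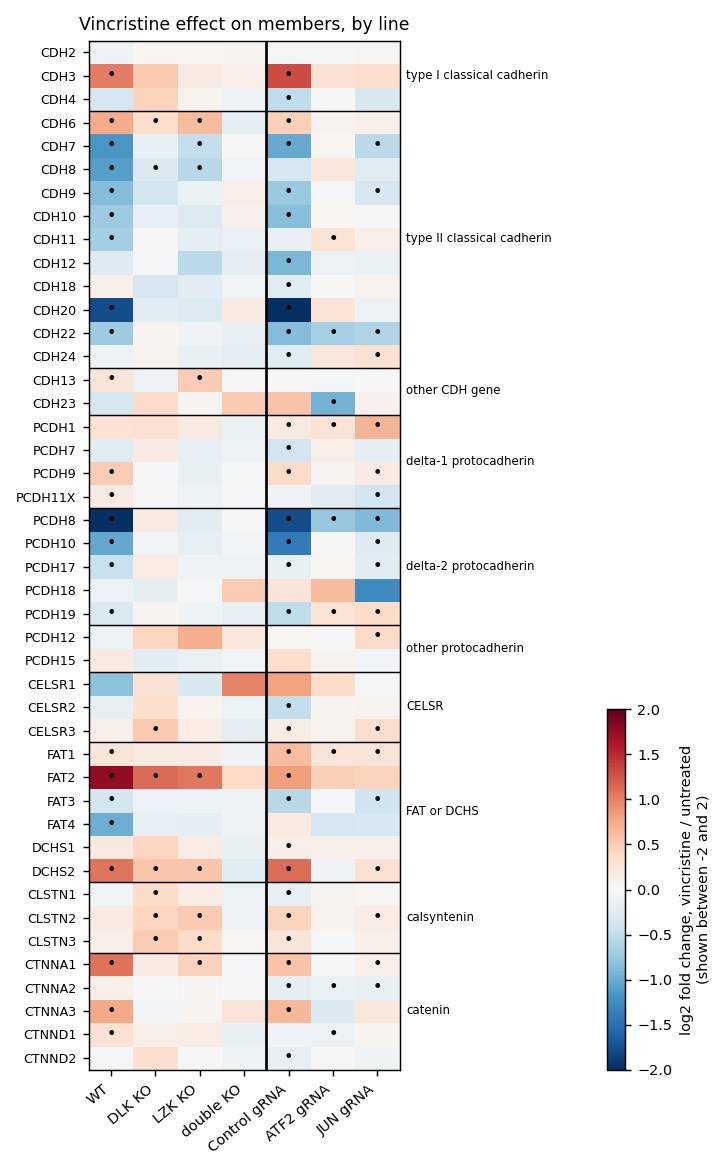
Log2 fold change with vincristine (colour, shown between -2 and 2) of each tested member in the 4 lines of experiment 1 and the 3 of experiment 2, grouped by family; dots mark called values, and PCDH11Y and the 5 members tested in experiment 2 only are not drawn. The double KO column holds no dot, and CDH20, PCDH8 and PCDH10 are blue with a dot in both WT and Control gRNA.

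Among type II cadherins CDH20 stood at 21.2, 22.4, 22.6 and 28.9 CPM in the untreated WT libraries and at 5.82, 6.38, 6.48 and 8.87 with vincristine. In Control gRNA its untreated libraries held 11.8, 12.6, 15.0, 15.1 and 15.4 CPM and the vincristine libraries 2.47, 3.502, 3.70, 3.71 and 4.16. Every vincristine library of both lines lay below every untreated one. The log2 fold change of CDH20 was -1.78 ± 0.15 (SE) in WT (edgeR adjusted p 7.7e-12) and -1.99 ± 0.10 in Control gRNA (edgeR adjusted p 1.0e-21).

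CDH7, which lies on the same chromosome arm as CDH20, stood at 75.7, 76.5, 79.4 and 84.2 CPM in untreated WT and at 31.5, 32.2, 36.6 and 40.9 with vincristine. It fell by 1.16 ± 0.08 (log2) in WT and by 1.01 ± 0.07 in Control gRNA, where 31.8, 36.0, 36.7, 37.1 and 41.4 CPM went to 16.4, 17.7, 18.4, 18.4 and 20.0. CDH10 held 45.0, 45.7, 46.8 and 46.8 CPM in untreated WT and 25.2, 26.5, 26.6 and 33.4 with vincristine. The CDH7 and CDH10 libraries of the 2 treatments did not overlap in either experiment. CDH10 fell by 0.72 ± 0.09 in WT and by 0.85 ± 0.07 in Control gRNA, CDH9 by 0.87 ± 0.13 and 0.74 ± 0.09, and CDH22 by 0.71 ± 0.16 and 0.87 ± 0.09. Other type II members were called in 1 experiment only: CDH8 and CDH11 fell in WT, and CDH12, CDH18 and CDH24 fell in Control gRNA. CDH6 went the other way, with a rise of 0.75 ± 0.08 in WT and 0.48 ± 0.12 in Control gRNA.

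Among type I cadherins CDH2, the most abundant one, was not called, at -0.10 ± 0.05 in WT and -0.05 ± 0.04 in Control gRNA. CDH3, the placental cadherin, rose by 1.02 ± 0.26 and 1.30 ± 0.23. It did so from a low level, with 0.909 to 1.85 CPM in untreated Control gRNA libraries and 3.22 to 4.27 with vincristine. CDH4, the retinal cadherin, fell in Control gRNA only among these 2 lines.

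The delta-2 protocadherins that fell in both experiments were PCDH8, PCDH10, PCDH17 and PCDH19, and none rose. PCDH8, a protocadherin known from synapses, stood at 54.6, 56.4, 58.2 and 68.2 CPM in untreated WT and at 7.22, 10.6, 14.1 and 14.3 with vincristine. In Control gRNA 17.1, 19.3, 20.2, 20.3 and 20.5 CPM went to 4.89, 4.93, 5.77, 6.03 and 6.80. PCDH8 had the lowest called value of all members in WT, -2.35 ± 0.15 (edgeR adjusted p 1.1e-13), and stood at -1.78 ± 0.10 in Control gRNA (edgeR adjusted p 4.4e-20). Treated and untreated libraries were apart in both lines.

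PCDH10, which is known for guiding forebrain axons, stood at 325, 335, 343 and 358 CPM in untreated WT and at 141, 174, 177 and 180 with vincristine. In Control gRNA 134, 145, 146, 155 and 156 CPM went to 53.0, 55.2, 55.9, 56.7 and 59.5. PCDH10 fell by 1.02 ± 0.07 in WT and by 1.39 ± 0.04 in Control gRNA (edgeR adjusted p 8.6e-29). PCDH17 fell by 0.45 ± 0.07 and 0.15 ± 0.06, the second of which lost its call under 10 alternatives, among them DESeq2. PCDH19, a gene known for an epilepsy, fell by 0.31 ± 0.12 in WT, a call lost under 9 alternatives, and by 0.51 ± 0.06 in Control gRNA. Of the delta-1 protocadherins PCDH9 rose by 0.50 ± 0.08 and 0.39 ± 0.06. PCDH11X rose in WT and was not called in Control gRNA.

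The giant cadherins split. FAT2, known from cerebellar granule cells, stood at 9.75, 12.1, 12.7 and 13.0 CPM in untreated WT and at 28.6, 39.8, 44.0 and 50.2 with vincristine. It rose by 1.77 ± 0.14 in WT and by 0.83 ± 0.20 in Control gRNA, where 5.50, 6.02, 6.38, 6.73 and 8.22 CPM went to 11.3, 11.5, 11.6, 11.8 and 12.2. DCHS2 stood at 35.3, 36.7, 40.0 and 43.3 CPM in untreated WT and at 70.8, 74.1, 89.0 and 89.8 with vincristine. DCHS2 rose by 1.06 ± 0.09 in WT and by 1.12 ± 0.07 in Control gRNA. For FAT2 and DCHS2 the vincristine libraries lay above the untreated ones in both lines. FAT1 rose by 0.25 ± 0.07 in WT, a call lost without WT vincristine replicate 3 and when WT was fitted alone, and by 0.62 ± 0.05 in Control gRNA. FAT3 fell by 0.36 ± 0.05 and 0.55 ± 0.09. FAT4, the receptor of DCHS1, fell in WT and was not called in Control gRNA. DCHS1 rose in Control gRNA only, and of the CELSR genes 0 of 3 were called in WT, while CELSR3 rose and CELSR2 fell in Control gRNA.

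Among catenins, CTNNA1, the alpha catenin of most tissues, stood at 28.4, 31.2, 33.7 and 33.8 CPM in untreated WT and at 58.9, 68.8, 70.9 and 72.1 with vincristine. It rose by 1.09 ± 0.08 in WT (edgeR adjusted p 2.8e-14) and by 0.57 ± 0.05 in Control gRNA, where 119, 126, 127, 131 and 131 CPM went to 184, 185, 188, 192 and 193. CTNNA1 libraries of the 2 treatments were apart in both lines. CTNNA2, the alpha catenin of neurons, was not called in WT (0.12 ± 0.06) and fell by 0.19 ± 0.04 in Control gRNA. CTNNA3 rose by 0.76 ± 0.24 and 0.66 ± 0.24 from under 1 RPKM, calls lost under 4 alternatives in WT and 5 in Control gRNA. Of the 3 calsyntenins none was called in WT. In Control gRNA CLSTN2 rose by 0.45 ± 0.04 and CLSTN3 by 0.25 ± 0.05, and CLSTN1 fell by 0.16 ± 0.03.

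**Figure D3:**
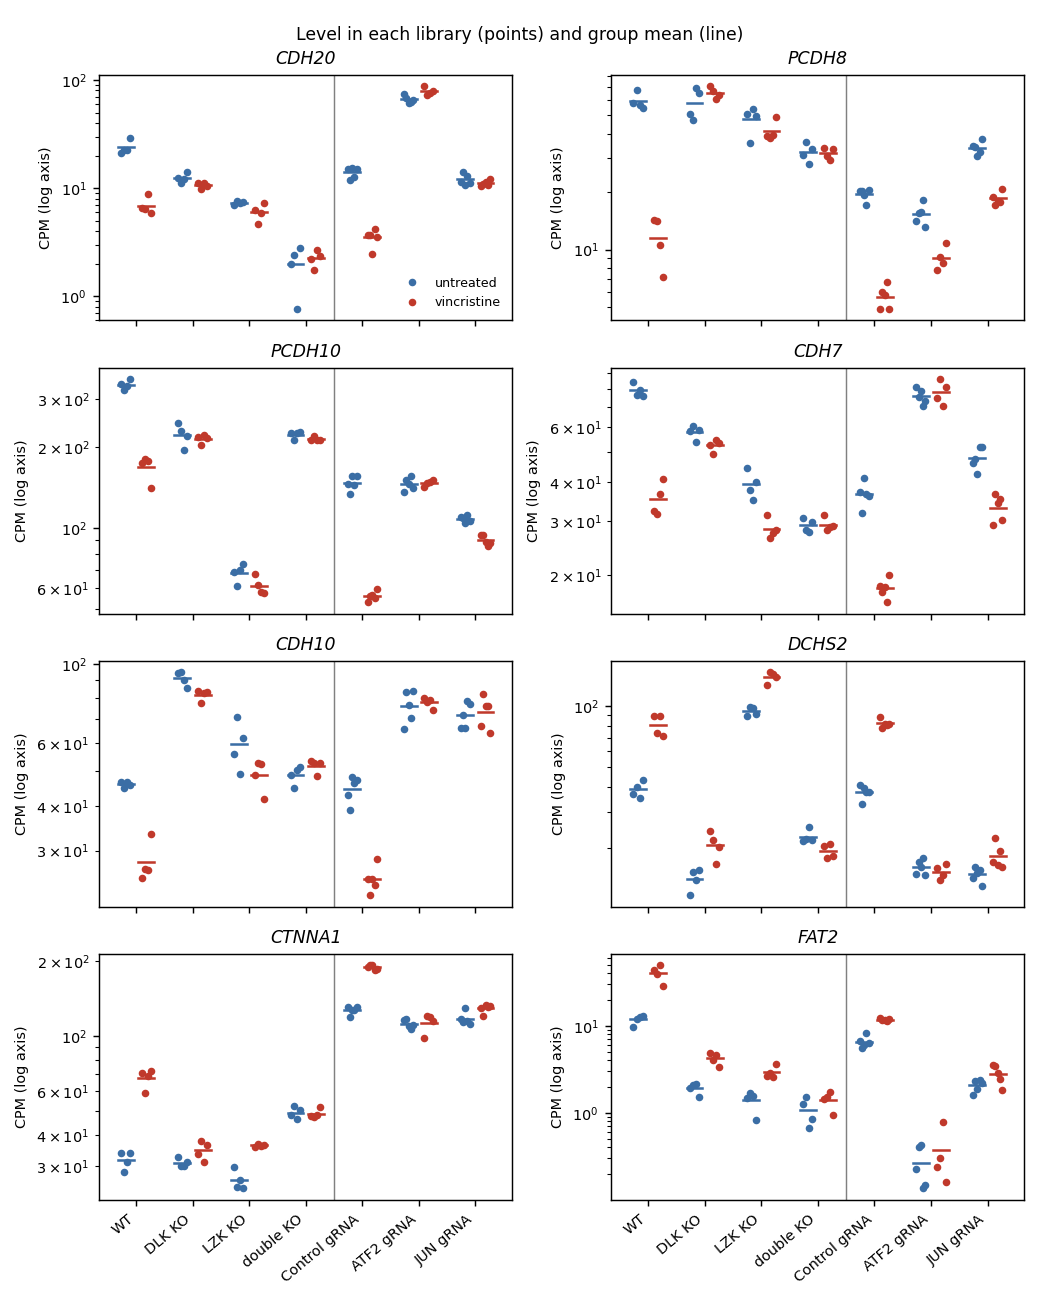
CPM (log axis, scale set for each gene) of 8 members in every library, with untreated libraries in blue, vincristine libraries in red and group means as lines; the grey line separates the experiments. CDH20 in untreated WT lies at 21.2 to 28.9 CPM and with vincristine at 5.82 to 8.87, and in ATF2 gRNA both treatments lie above 60 CPM.

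The next comparison asks whether the vincristine effect on these genes differed in knockout lines. In double KO 0 of 45 members were called in edgeR (7 at an unadjusted p under 0.05, 0 under DESeq2), beside 0.0658% of all genes (0.00548% higher, 0.0603% lower). When the double KO groups were fitted without the other lines, 3 members were called, all lower. In DLK KO 8 were called (7 higher, 1 lower), beside 6.53% of all genes (4.24% higher, 2.28% lower); 16 were called (13 higher, 3 lower) when DLK KO was fitted alone, and 5, all higher, without its untreated replicate 1. LZK KO had 9 (7 higher, 2 lower), beside 3.88% (2.27% higher, 1.61% lower). The rises were those of FAT2, DCHS2, CDH6 and calsyntenins in both lines, with CELSR3 in DLK KO and CTNNA1 and CDH13 in LZK KO. CTNNA1 rose by 0.47 in LZK KO and was not called in DLK KO (0.17). FAT2 rose by 1.14 ± 0.22 in DLK KO, from 1.51 to 2.12 CPM up to 3.33 to 4.85, and by 1.05 ± 0.27 in LZK KO, from 0.824 to 1.68 CPM up to 2.56 to 3.63, a call lost under 3 alternatives. DCHS2 rose by 0.56 ± 0.11 and 0.56 ± 0.09. All 3 calsyntenins rose in DLK KO and CLSTN2 and CLSTN3 in LZK KO, by 0.37 to 0.52. CDH6 rose by 0.35 ± 0.08 and 0.63 ± 0.10. CELSR3 rose by 0.53 ± 0.16 in DLK KO, a call lost under 8 alternatives.

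Most of the falls seen in WT were not called in these lines. CDH20 held 11.2 to 14.0 CPM in untreated DLK KO libraries and 9.73 to 11.2 with vincristine, 6.94 to 7.58 and 4.63 to 7.26 in LZK KO, and 0.755 to 2.79 and 1.74 to 2.69 in double KO. Treated and untreated CDH20 libraries overlapped in all 3 knockout lines, and the fitted changes were -0.23 ± 0.15, -0.28 ± 0.18 and 0.18 ± 0.25. PCDH8 stood at 0.17 ± 0.13, -0.21 ± 0.14 and -0.02 ± 0.14, and PCDH10 at -0.05 ± 0.07, -0.16 ± 0.07 and -0.06 ± 0.07. The falls that were called were of CDH8 in DLK KO (-0.29 ± 0.08, a call lost under 2 alternatives) and of CDH7 and CDH8 in LZK KO.

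The difference itself was tested as an interaction, and all 3 tests share the WT libraries. For DLK KO the difference from WT was called for 20 members (14 higher, 6 lower), beside 19.4% of all genes (9.95% higher, 9.41% lower). For LZK KO it was called for 15 (11 higher, 4 lower), beside 12.4% (5.88% higher, 6.53% lower). For double KO it was called for 18 (11 higher, 7 lower), beside 19.4% (9.21% higher, 10.2% lower). The members' medians were 0.26, 0.14 and 0.00, beside 0.00 for all genes in each. Where WT fell, a positive difference means a smaller fall. PCDH8 differed by 2.52 ± 0.20, 2.15 ± 0.21 and 2.34 ± 0.21 for DLK KO, LZK KO and double KO. CDH20 differed by 1.55 ± 0.21, 1.5 ± 0.24 and 1.95 ± 0.29, in the same order of lines. CDH7 followed at 1.02 ± 0.11, 0.69 ± 0.11 and 1.17 ± 0.11, and PCDH10 at 0.97 ± 0.10, 0.86 ± 0.10 and 0.96 ± 0.10. Without drug CDH20, CDH7 and PCDH10 were already lower than in WT in all 3 lines, CDH20 at -0.94, -1.70 and -3.58 (log2). PCDH8 was lower in double KO only, at -0.88. The part of these starting levels in the differences was not tested.

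Called negative differences were of members that rose in WT, except for CDH18, which was lower for DLK KO and not called in WT. CTNNA1 stood at -0.92 ± 0.11, -0.63 ± 0.11 and -1.11 ± 0.11 for DLK KO, LZK KO and double KO. DCHS2 differed by -0.51 ± 0.14, -0.51 ± 0.13 and -1.30 ± 0.14, and PCDH9 by -0.54 ± 0.11, -0.66 ± 0.11 and -0.55 ± 0.11. FAT2 was called in double KO alone among the 3 tests, at -1.37 ± 0.34, with -0.64 ± 0.27 and -0.72 ± 0.32 in the single knockouts. Of the 3 calsyntenins, 1 was called in each single knockout, CLSTN3 at 0.40 ± 0.13 in DLK KO and CLSTN2 at 0.35 ± 0.11 in LZK KO. In double KO 0 were called, with values of -0.05 for CLSTN1, -0.29 for CLSTN2 and -0.07 for CLSTN3.

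Between double KO and DLK KO the difference was called for 3 members, all lower, beside 1.14% of all genes (0.126% higher, 1.01% lower). Without the other lines in the fit 17 were called (2 higher, 15 lower), and DESeq2 and a fit with no filter each called 6, all lower. The 3 were DCHS2 at -0.79 ± 0.15, CDH6 at -0.55 ± 0.11 and CLSTN2 at -0.55 ± 0.11. DCHS2 libraries in DLK KO stood at 11.7 to 15.5 CPM untreated and 16.6 to 24.2 with vincristine, and in double KO at 21.6 to 25.2 and 17.8 to 21.0. The DCHS2 libraries of double KO with vincristine lay below those without it, and those of DLK KO above.

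**Figure D4:**
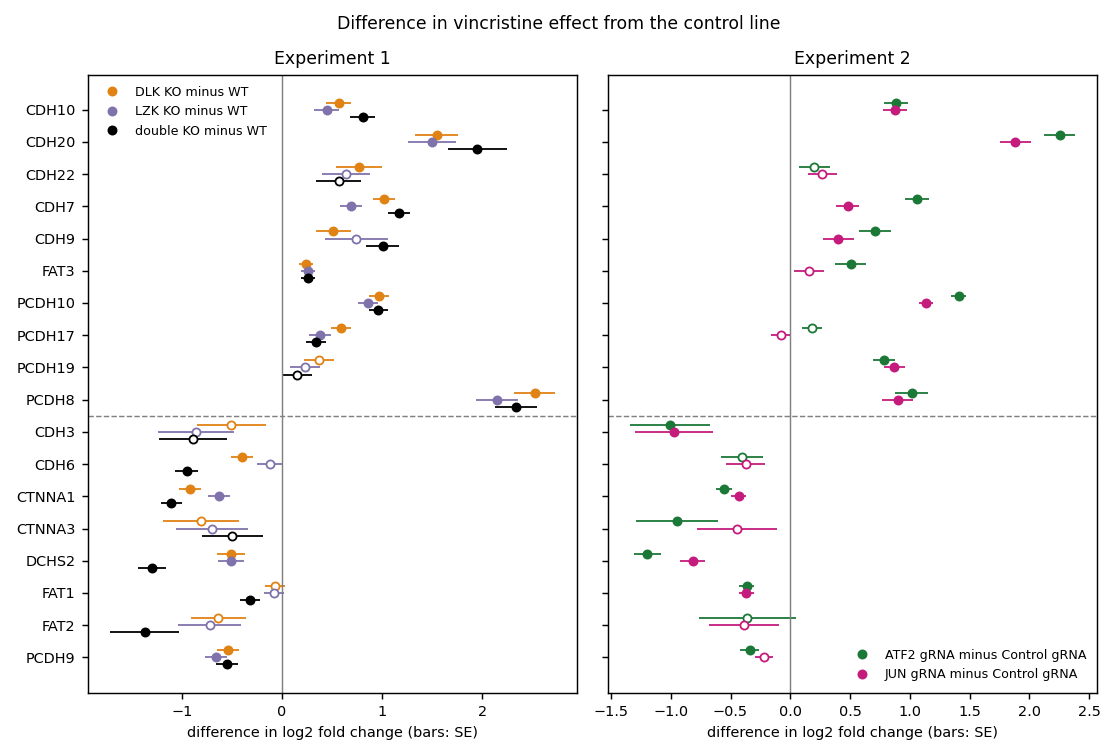
Difference in the vincristine log2 fold change from WT (left) or Control gRNA (right) for the 18 members called in the same direction in both; points are fitted differences, bars are SE, filled points are called, and the dashed line separates members that fell (above) from those that rose. PCDH8 and CDH20 lie farthest to the right at left, and CDH20 at 2.25 and 1.88 at right.

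The same questions were put to the CRISPRi lines. With ATF2 gRNA, vincristine changed 9 of 50 members (4 higher, 5 lower), beside 6.1% of all genes (1.88% higher, 4.22% lower). With JUN gRNA it changed 20 (10 higher, 10 lower), beside 15.9% (7.58% higher, 8.31% lower). In ATF2 gRNA the lowest called values were of CDH23 (-0.94 ± 0.28, a call lost under 6 alternatives), PCDH8 (-0.76 ± 0.10) and CDH22 (-0.66 ± 0.10). The highest called values there were 0.27 ± 0.06 for PCDH1, 0.27 ± 0.06 for PCDH19 and 0.27 ± 0.07 for CDH11. In JUN gRNA PCDH8 fell by 0.88 ± 0.09, CDH22 by 0.60 ± 0.09 and CDH7 by 0.53 ± 0.07, and PCDH1 rose by 0.67 ± 0.06, PCDH19 by 0.36 ± 0.06 and PCDH12 by 0.39 ± 0.11.

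CDH20 gave the largest called difference among members in both CRISPRi lines. It stood at 61.0, 62.8, 64.9, 68.6 and 73.6 CPM in untreated ATF2 gRNA and at 73.2, 75.8, 79.5 and 88.5 with vincristine, and these groups overlapped at one pair of libraries. In JUN gRNA it stood at 10.7, 11.1, 11.4, 12.9 and 13.9 CPM untreated and at 10.5, 10.8, 10.9, 11.4 and 12.1 with vincristine, and the groups overlapped. The vincristine effect was 0.26 ± 0.09 in ATF2 gRNA (edgeR adjusted p 0.059, called under 6 alternatives with up to 0.30) and -0.11 ± 0.09 in JUN gRNA. The CDH20 effect differed from that of Control gRNA by 2.25 ± 0.13 with ATF2 gRNA and 1.88 ± 0.13 with JUN gRNA.

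In all, 25 members differed from Control gRNA in ATF2 gRNA (16 higher, 9 lower), beside 20.6% of all genes (10.2% higher, 10.4% lower). For JUN gRNA 18 differed (13 higher, 5 lower), beside 15.8% (8.71% higher, 7.06% lower). Both tests share the Control gRNA libraries. PCDH10 differed by 1.41 ± 0.06 and 1.13 ± 0.06; its ATF2 gRNA libraries held 136 to 156 CPM untreated and 142 to 151 with vincristine. CDH7 differed by 1.06 ± 0.10 and 0.48 ± 0.10, PCDH8 by 1.02 ± 0.14 and 0.90 ± 0.13, and CDH10 by 0.88 ± 0.10 and 0.87 ± 0.10. DCHS2 differed by -1.198 ± 0.11 and -0.82 ± 0.11. It held 14.7 to 17.8 CPM in untreated ATF2 gRNA and 13.8 to 16.7 with vincristine, and 13.0 to 16.2 and 16.0 to 22.5 in JUN gRNA. CDH23 in ATF2 gRNA differed by -1.503 ± 0.36, and CDH3 by -1.004 ± 0.33 with ATF2 gRNA and -0.97 ± 0.33 with JUN gRNA; the CDH3 calls were lost under 2 and 9 alternatives.

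The 4 members with CRE letters in a promoter window were CLSTN2, CLSTN3, CTNNA1 and FAT1. All were called higher in Control gRNA, beside 17.1% of all genes. In the ATF2 gRNA difference all were called lower, beside 10.4%, at -0.37 ± 0.06, -0.29 ± 0.07, -0.56 ± 0.07 and -0.37 ± 0.07. This difference uses the same Control gRNA libraries, so the calls are not independent and the all-gene share is no fair yardstick. Vincristine also raised FAT1 in ATF2 gRNA. Untreated FAT1 was higher in ATF2 gRNA (0.93), and CLSTN2, CLSTN3 and CTNNA1 were lower (-1.91, -0.96 and -0.18). CDH3, CDH23, CTNNA3, DCHS2 and PCDH9 were also lower in this difference. No CRE match was found for them, but only 35 of the 53 members had a window to search. In the JUN gRNA difference 3 of the 4 CRE members were called lower, CLSTN2 at -0.30 ± 0.06, CTNNA1 at -0.43 ± 0.06 and FAT1 at -0.37 ± 0.06. In experiment 1 CLSTN2 and CLSTN3 were not called in WT. The differences from WT called for CLSTN2 in LZK KO and CLSTN3 in DLK KO were positive. CTNNA1 and FAT1 rose in WT and were called lower in the double KO difference. CTNNA1 was also lower in both single knockout differences, and FAT1 was not called there. Of the 4 members with AP-1 letters, CDH12 and CDH18 fell in Control gRNA, beside 18.1% of all genes, and CDH2 and PCDH11X were not called. CDH12 alone was called in the ATF2 gRNA difference, at 0.80 ± 0.14, beside 10.2% of all genes called higher. It alone was also called in the JUN gRNA difference, again higher, beside 8.71%. Binding at these letters was not measured in these cells.

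PCDH19 and CDH24 changed direction between lines. PCDH19 held 27.9, 30.5, 31.2, 35.1 and 35.5 CPM in untreated Control gRNA and 20.3, 21.6, 22.6, 24.0 and 24.4 with vincristine. In ATF2 gRNA it held 79.9 to 86.7 CPM and 95.5 to 106, and in JUN gRNA 47.0 to 56.6 and 56.9 to 71.2. The libraries were apart in all 3 lines, down in Control gRNA and up in the others. The PCDH19 effect differed from that of Control gRNA by 0.78 ± 0.09 with ATF2 gRNA and 0.87 ± 0.09 with JUN gRNA. CDH24 fell by 0.24 ± 0.08 in Control gRNA and rose by 0.30 ± 0.08 in JUN gRNA.

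The effects in ATF2 gRNA and JUN gRNA differed from each other for 5 members (2 higher, 3 lower in ATF2 gRNA), beside 2.83% of all genes (0.91% higher, 1.92% lower). CDH7 differed by 0.58 ± 0.10 and PCDH10 by 0.27 ± 0.06, both with a called fall in JUN gRNA and no call in ATF2 gRNA. PCDH1 differed by -0.40 ± 0.08, CELSR3 by -0.27 ± 0.07 and CTNND1 by -0.17 ± 0.05, where CELSR3 lost its call under 3 alternatives and CTNND1 under 16.

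Beside these results, markers of other states moved too. The summed neural progenitor markers (SOX2, PAX6, NES, HES5, VIM, SOX1) went from 780 to 825 CPM in untreated WT to 1055 to 2096 with vincristine, and from 1327 to 1419 to 2560 to 2657 in Control gRNA. Most of this sum was NES, at 718 and 1529 CPM on average in WT. The sum was also higher with vincristine in DLK KO (229 to 297 CPM against 525 to 638), LZK KO (552 to 709 against 1056 to 1257) and JUN gRNA (966 to 1090 against 1670 to 1777). In double KO it stood at 291 to 303 and 288 to 306, and in ATF2 gRNA at 766 to 842 and 733 to 843. The epithelial markers (EPCAM, KRT8, KRT18, CLDN4) went from 4.10 to 5.56 CPM to 9.92 to 14.8 in WT and from 3.09 to 5.00 to 11.3 to 15.1 in Control gRNA. Of these 4 markers, 2 stayed under 1 CPM in every untreated WT library and 3 in every untreated Control gRNA library. With vincristine 1 and 2 did so. The neuron sum went from 11520 to 12220 down to 9676 to 10750 CPM in WT and from 12000 to 12810 down to 8841 to 9449 in Control gRNA. Their part in the member results was not tested.

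The last comparison asks how the lines differed without drug. In untreated DLK KO 29 of 45 members were called against WT (10 higher, 19 lower), beside 34.5% of all genes (16.5% higher, 17.9% lower). LZK KO had 29 (7 higher, 22 lower), beside 33.9% (17.1% higher, 16.8% lower). Double KO had 33 (17 higher, 16 lower), beside 45.7% (23.6% higher, 22.1% lower). Marker sums of these untreated lines also stood apart from WT. Cycling cell markers averaged 11.8 CPM in WT and 18.7, 66.3 and 28.2 in DLK KO, LZK KO and double KO, and pluripotent cell markers 3.898 against 12.7, 16.9 and 56.4. Of the 6 pluripotent cell markers, 4 stayed under 1 CPM in every untreated library of WT, DLK KO and LZK KO, and 2 in double KO. Neural progenitor markers averaged 795 CPM against 271, 637 and 297, and glutamatergic markers (SLC17A6, SLC17A7) 328 against 213, 176.5 and 183. Their part in the member results was not tested. These tests share the untreated WT libraries. FAT2 was lower in each, at -2.63 ± 0.20, -3.08 ± 0.21 and -3.46 ± 0.21. CDH20 was lower at -0.94 ± 0.14, -1.70 ± 0.15 and -3.58 ± 0.18. PCDH19 was higher, at 2.19 ± 0.10, 2.50 ± 0.10 and 2.92 ± 0.10. Its libraries held 7.83, 8.29, 8.79 and 10.3 CPM in WT, 35.5 to 45.4 for DLK KO, 46.1 to 57.1 for LZK KO and 64.9 to 67.6 for double KO, with no overlap between WT and any knockout line.

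CLSTN2, PCDH10 and PCDH11X were lower in all 3 lines; differences between knockout lines without drug were not tested. CLSTN2 held 299 to 324 CPM in WT and 99.2 to 110 in DLK KO (-1.60 ± 0.08), and stood at -1.03 ± 0.08 in LZK KO and -0.21 ± 0.08 in double KO. PCDH10 stood at -0.62 ± 0.07, -2.32 ± 0.07 and -0.61 ± 0.07 for DLK KO, LZK KO and double KO, and PCDH11X at -0.69 ± 0.07, -1.45 ± 0.07 and -2.70 ± 0.07. DCHS2 was lower in DLK KO at -1.46 ± 0.10 and in double KO at -0.77 ± 0.10, and higher in LZK KO at 1.29 ± 0.09. In LZK KO CDH9 stood at 0.942 to 1.56 CPM against 10.6 to 15.4 in WT (-3.33 ± 0.18). PCDH12 was called at -3.29 ± 0.34 in LZK KO on 1 to 4 counts per library, against 26 to 54 in WT. PCDH18 was called higher in all 3 lines, at 2.45 ± 0.36, 3.38 ± 0.33 and 2.52 ± 0.35, on 1 to 4 counts per WT library and 14 to 30 in the knockout lines. With so few WT counts PCDH18 passed the expression filter through other libraries, so the direction of these calls was close to set by the filter. In double KO CDH4 held 130 to 142 CPM against 15.8 to 19.6 in WT (2.92 ± 0.14). In DLK KO CDH10 was higher, at 0.99 ± 0.09.

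Several of these members lie where neighbouring genes moved the same way. In untreated double KO, 3 members on chromosome 18 were lower, CDH2 at -1.10, CDH20 at -3.58 and CDH7 at -1.45. The genes within 5 Mb of each, members left out, had a median log2 fold change of -0.84 (24 genes), -0.94 (21) and -0.95 (16). On chromosome 20 CDH4 stood at 2.92 and CDH22 at 0.42, with neighbour medians of 0.62 (71 genes) and 0.53 (75). In untreated DLK KO CTNND2 on chromosome 5 stood at -1.27, with a neighbour median of -0.86 (19 genes), and PCDH1 and PCDH12 at -1.14 and -1.26, with -0.47 (130). FAT2, PCDH8 and PCDH19 in double KO had neighbour medians of 0.02, 0.00 and -0.14. CDH20 in LZK KO, where it was also lower, had a neighbour median of -0.01 (21 genes). Copy number was not measured, and its part in these values was not tested.

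**Figure D5:**
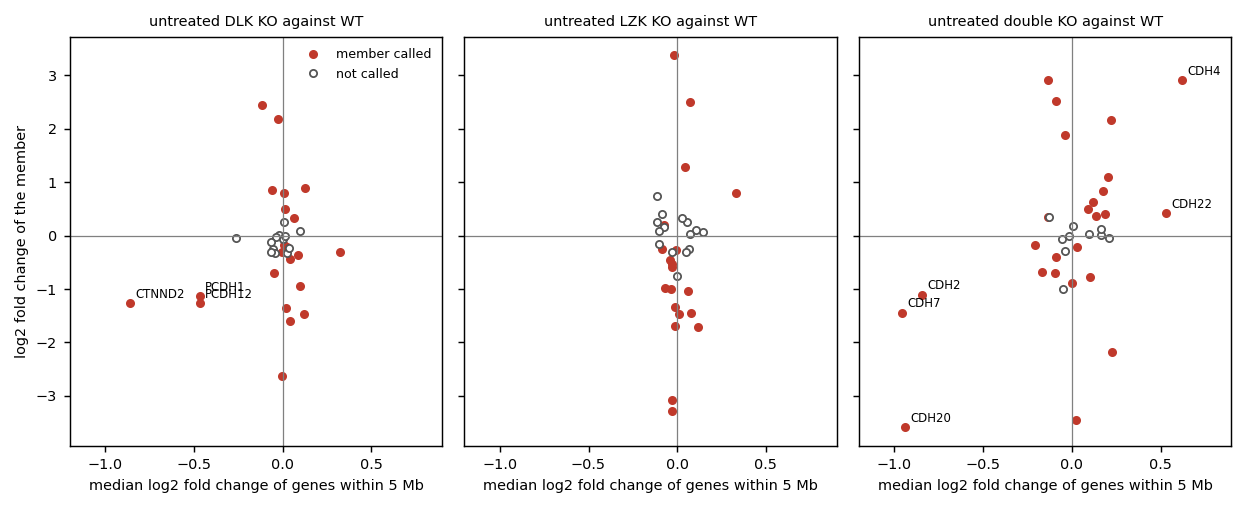
Log2 fold change of each member (vertical axis) against the median of the genes within 5 Mb (horizontal axis) in untreated DLK KO, LZK KO and double KO against WT, for members with at least 10 such neighbours; filled points are called, and members with a median beyond 0.4 are named. CDH2, CDH7 and CDH20 stand at the left of the double KO panel and CDH4 and CDH22 at its right.

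In untreated ATF2 gRNA 39 of 50 members were called against Control gRNA (20 higher, 19 lower), beside 39.9% of all genes (19.7% higher, 20.2% lower). JUN gRNA had 23 (10 higher, 13 lower), beside 11.2% (5.78% higher, 5.46% lower). FAT2 was lower in both, with 0.135, 0.148, 0.227, 0.4002 and 0.421 CPM in ATF2 gRNA (-4.62 ± 0.27) and 1.60 to 2.37 in JUN gRNA (-1.67 ± 0.21). CLSTN2 held 358 to 390 CPM in Control gRNA and 96.9 to 104 in ATF2 gRNA (-1.91 ± 0.04), and DCHS2 stood at -1.23 ± 0.08 with ATF2 gRNA and -1.35 ± 0.08 with JUN gRNA. CDH22 was lower at -1.27 ± 0.09 in ATF2 gRNA and CDH6 at -0.85 ± 0.12 in JUN gRNA. No library of ATF2 gRNA or JUN gRNA reached the untreated Control gRNA libraries in FAT2 or DCHS2.

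CDH20 was higher in ATF2 gRNA by 2.24 ± 0.09, and PCDH15, a tip-link protein of hair cells, by 2.73 ± 0.32, at 6.98 to 9.65 CPM against 0.238 to 1.82. In JUN gRNA CDH20 was not called. CDH19 was also called higher in ATF2 gRNA, on 0, 5, 6, 9 and 17 counts, with 0 in every untreated Control gRNA library, so no fold is given. CDH19 passed the expression filter through other libraries, so the direction of this call, counted among the 20 higher, was close to set by the filter. The highest called in JUN gRNA were PCDH15 at 1.05 ± 0.32, a call lost under 7 alternatives, PCDH8 at 0.80 ± 0.09 and PCDH19 at 0.69 ± 0.06. The GABAergic markers (GAD1, GAD2, SLC32A1) summed to 22.2 to 26.2 CPM in untreated ATF2 gRNA and 0.489 to 1.49 in Control gRNA, the epithelial markers to 29.2 to 32.1 and 3.09 to 5.00, and the pluripotent cell markers to 33.9 to 40.4 and 10.3 to 13.5. In untreated ATF2 gRNA 2 of the 4 epithelial and 4 of the 6 pluripotent cell markers stayed under 1 CPM in every library, so these sums rest on few genes. Their part in the member results was not tested.

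Genes that work with cadherins were counted in the same fits, 50 genes in 5 lists that hold no member. With vincristine 8 were higher and 7 lower of 49 tested in WT, a share near the 15.7% and 14.5% of all genes. In Control gRNA 10 were higher and 20 lower of 50, beside 17.1% and 18.1%. Adherens junction partners gave 4 higher and 5 lower of 18 in WT and 6 and 7 in Control gRNA. CTNNB1, the beta catenin that joins cadherins to alpha catenins, fell by 0.33 in WT and 0.65 in Control gRNA. PKP4 rose by 1.07 and 1.13 and CTNNAL1, a relative of alpha catenin, by 1.18 and 1.60. Of the planar cell polarity core, 1 of 12 fell in WT, VANGL1 at -1.11, and in Control gRNA 7 fell and 1 rose. Of the 6 calsyntenin partners 0 were called in WT and 5 fell in Control gRNA. Of 9 cadherin cleavage genes 2 rose in WT, and 1 rose and 1 fell in Control gRNA. Of the regulators of cadherin transcription 2 rose and 1 fell of 4 tested in WT, and 2 of 5 rose in Control gRNA. ZEB1 rose in both (0.34 and 0.49). In DLK KO 7 of the 49 were higher and 1 lower, beside 4.24% and 2.28% of all genes. LZK KO had 3 and 1, beside 2.27% and 1.61%, and double KO 0 and 0, beside 0.00548% and 0.0603%. In ATF2 gRNA 1 of 50 was higher and 7 lower, beside 1.88% and 4.22%, and in JUN gRNA 3 and 9, beside 7.58% and 8.31%.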

How the data were processed

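PolyA RNA was sequenced as stranded paired libraries, per the labels' protocols. The authors deposited gene counts, made with cutadapt 3.4, STAR, featureCounts and Subread 2.0.1 on GRCh38, per the submitters' processing notes, from reads with marked duplicates, per the file headers. The strand setting and the use of duplicates are not given in the sources used here, so antisense and overlapping genes are uncertain. Gene identifiers were matched to GENCODE 29 (56992 of 58440 with the same version). Each experiment was fitted apart in edgeR 4.0.16 (R 4.3.3; filterByExpr, TMM factors, robust quasi-likelihood, 1 mean per group), with Benjamini-Hochberg adjustment over all genes and calls under 0.05, over 19 comparisons. CPM and RPKM use TMM library sizes. Log2 fold changes are given ± SE. The steps were tested on simulated counts. Alternatives were DESeq2 1.42.0, RLE factors, no filter, a replicate block, fits restricted to the 2 or 4 groups of a comparison, and fits without 1 library.

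Named with values are CDH20 and the 8 members of highest RPKM in untreated WT and Control gRNA. So are up to 3 highest and 3 lowest called members of each comparison, and members called alike in WT and Control gRNA. Some further values are given for calsyntenins, members with motif letters and members whose effects changed direction. Pathway genes and neighbours of members were singled out after their values were seen. Members and lists were chosen with earlier results of these data known. No 2 libraries of a group were identical, and no pair agreed within counting noise. Counts of a gene limit its precision, and intervals for single libraries are not given because groups have replicates. Y-linked values are left out.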

Additional observations from a re-analysis of the deposited data

Results flagged for a closer look

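Of 112 sets of libraries (8 members in 14 groups), 7 held a library far from the others of its group by Dixon's gap test, where chance flags about 1 in 20. PCDH10 (140.9 CPM, lowest) and CDH10 (33.43 CPM, highest) both came from WT vincristine replicate 4. The others were PCDH8 in LZK KO vincristine replicate 4 (49.24 CPM, highest), CDH10 in DLK KO vincristine replicate 2 (77.57, lowest), DCHS2 in double KO untreated replicate 3 (25.25, highest), CTNNA1 in double KO vincristine replicate 4 (51.9, highest) and CTNNA1 in JUN gRNA vincristine replicate 2 (120.1, lowest).

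The vincristine effect on members differed between lines by interaction tests in edgeR. Measured from WT, DLK KO had called differences for 20 of 45 members, beside 19.4% of all genes tested. LZK KO had 15, beside 12.4%. Double KO had 18, beside 19.4%. Set against DLK KO, double KO had 3, beside 1.14%. Measured from Control gRNA, ATF2 gRNA had 25 of 50 members, beside 20.6%. JUN gRNA had 18, beside 15.8%. The 2 CRISPRi lines differed from each other for 5 members, beside 2.83%. Called effects of opposite sign were found for PCDH19 (against Control gRNA, 0.7812 with ATF2 gRNA and 0.8699 with JUN gRNA) and CDH24 (0.543 with JUN gRNA).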

How the results depend on the processing

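Of 161 called values of named members, 144 kept their call under every alternative run, 17 lost it under at least 1, and 0 turned direction. Of 28 values not called, 2 were called under at least 1. Further values are not among these, such as those of CDH12 and CDH24 and the CRISPRi differences of CLSTN2, CLSTN3, FAT1 and PCDH19. Counts of called members moved by over 1.5 times in these cases. When other lines were left out of the fit they were 16 in DLK KO, 3 in double KO and 17 for double KO against DLK KO, against 8, 0 and 3; the last was 6 under DESeq2 and 6 with no filter. For ATF2 gRNA against JUN gRNA, DESeq2 gave 8, against 5. Leaving out 1 library gave 5 to 10 in DLK KO (5 without DLK KO untreated replicate 1) and 3 to 6 for ATF2 gRNA against JUN gRNA (3 when ATF2 gRNA vincristine replicate 3 was left out). The cause was not tested.

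Some values near 0 that were not called turned sign. With no filter CDH7 in double KO was -0.003752. Leaving out 1 library gave CDH20 -0.1095 to 0.3921, CDH7 -0.02731 to 0.03151, CTNNA1 -0.0493 to 0.01313 and PCDH8 -0.08066 to 0.04355 in double KO. In ATF2 gRNA it gave CDH10 -0.01044 to 0.07427, CDH7 -0.002409 to 0.09819, CTNNA1 -0.01197 to 0.08451, FAT2 -0.1682 to 0.7248 and PCDH10 -0.00853 to 0.04012. In JUN gRNA it gave CDH10 -0.01914 to 0.06733.

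The replicate numbers did not pair the libraries: same-numbered libraries of the 2 treatments correlated at -0.176 to 0.11 in experiment 1 and -0.0424 to 0.0465 in experiment 2, and 4 of 16 and 5 of 15 correlated best with their own number. A replicate block gave 22 called members in WT, against 24, and 32 in Control gRNA, as without it; among named values it ended the call of PCDH19 in WT, CELSR3 in DLK KO and CTNND1 between ATF2 gRNA and JUN gRNA. Precision is low where libraries held few counts: PCDH18 had 1 to 4 in untreated WT, PCDH12 1 to 4 in untreated LZK KO and CDH19 0 to 17 in untreated ATF2 gRNA.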
